A study of Homo sapiens with 8 samples.

Results

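Libraries 1 and 5 were made from A498 cells, a long-established line of human kidney cancer (clear cell renal cell carcinoma) that carries a mutated VHL tumor suppressor gene. Library 1 came from untreated cells and library 5 from cells kept for 4 h with 30 ng/ml of IL1β, an inflammatory cytokine that signals through NF-kB. The other 6 libraries of the series came from the same line, with libraries 6 to 8 treated with IL1β in the same way and libraries 2 to 4 untreated. Each group is 1 cell line, no genetic change separates the groups, and the labels do not say which treated culture belongs to which untreated one or whether the cultures were grown apart. The labels also give nothing that sets libraries 1 and 5 apart from the rest.

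The 2 libraries were selected on measured values, since they lie far from the other 6 on the first principal component (PC1) of log2 CPM, that is of counts per 1000000 after TMM scaling (trimmed mean of M-values). That component held 42.75% of the variance, with scores of -59.5 for library 1 and -101.7 for library 5, against 18.82 to 37.15 for the other 6. IL1β separated the libraries on the second component (22.39% of the variance), where library 5 scored 21.56 and libraries 6 to 8 scored 24.56 to 39.42, against -47.7 for library 1 and -43.66 to 5.254 for libraries 2 to 4. Because the same gene levels chose the 2 libraries, what follows for libraries 1 and 5 against the rest is a description with no test. A difference in the cultures and a difference in the handling of the RNA cannot be told apart in this design.

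Library 1 held 27040505 counts and library 5 held 15650615, against 15409093 to 24000727 in the other 6, so that depth did not set the 2 apart in 1 direction. One count stood for 0.0367 to 0.0735 CPM. The 100 most abundant genes took 20.1% and 22.9% of the counts in libraries 1 and 5, against 18.0% to 19.1% in the rest, and mRNA of ribosomal proteins took 5.75% and 7.44%, against 4.24% to 5.15%. Mitochondrially encoded mRNA, which often moves with RNA quality, lay inside the range of the other 6, at 1.09% and 0.9% against 0.761% to 1.81%. The labeled cell type was checked by its markers. The renal lineage factor PAX8 was at 136 CPM in library 1 and 519 CPM in library 5, against 107 to 438 CPM, and VIM was at 4050 and 4830 CPM, against 3310 to 4340 CPM. KRT8 and KRT18 were present in all 8 libraries. CA9, often used as a marker of this carcinoma, was low, at 2.75 and 5.8 CPM against 0.403 to 3.15 CPM. Of 18 leukocyte markers 15 stayed under 1 CPM in every library and 2 had no count at all. Their sum was 22.6 CPM in library 1 and 2.87 CPM in library 5, against 2.52 to 10.8 CPM, and most of it in library 1 was LYZ, at 19.5 CPM. Of 11 endothelial markers 7 stayed under 1 CPM, with sums of 6.79 and 2.79 CPM against 3.03 to 9.71 CPM.

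A growing cell culture holds cells in all phases of the division cycle. The genes of DNA synthesis are switched on by E2F factors before replication, and the genes of mitosis later by B-MYB and FOXM1, so that their mRNA is plentiful in proliferating cultures and scarce in resting ones. Cells under stress switch on other programs. Misfolded protein in the endoplasmic reticulum (ER) raises its chaperones through ATF6, XBP1 and ATF4, and misfolded protein in the cytosol raises heat shock proteins through HSF1. Hypoxia-inducible factors raise genes of angiogenesis and glucose use, and in VHL-mutant renal carcinoma cells they are not degraded in the normal way even where oxygen is plentiful.

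The promoters of 5 genes are shown because their genes carry the main differences between libraries 1 and 5 and the rest. They are the 200 bases before the RefSeq transcript start (GRCh38.p14), 5′ to 3′ on the strand of the gene, and capitals mark the motifs searched. HSPA5 and HERPUD1, from the ER stress program, lie at chr9:125241344-125241543 on the minus strand and chr16:56931942-56932141 on the plus strand. Their capitals mark the motif CCACG and the motif of NF-Y, which is CCAAT or, read on the other strand, appears as ATTGG.
HSPA5: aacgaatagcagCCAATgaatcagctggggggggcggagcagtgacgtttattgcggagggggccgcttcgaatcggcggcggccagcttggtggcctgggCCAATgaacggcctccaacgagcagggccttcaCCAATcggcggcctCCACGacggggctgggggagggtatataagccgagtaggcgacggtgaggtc
HERPUD1: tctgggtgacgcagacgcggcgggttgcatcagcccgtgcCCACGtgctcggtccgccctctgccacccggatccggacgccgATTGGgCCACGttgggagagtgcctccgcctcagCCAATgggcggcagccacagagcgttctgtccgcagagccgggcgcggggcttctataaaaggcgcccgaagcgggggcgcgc
HSPA6, a heat shock gene with very little mRNA in unstressed cells, has its promoter at chr1:161524340-161524539 on the plus strand, with the heat shock factor core GAANNTTC (N is any base) in capitals.
HSPA6: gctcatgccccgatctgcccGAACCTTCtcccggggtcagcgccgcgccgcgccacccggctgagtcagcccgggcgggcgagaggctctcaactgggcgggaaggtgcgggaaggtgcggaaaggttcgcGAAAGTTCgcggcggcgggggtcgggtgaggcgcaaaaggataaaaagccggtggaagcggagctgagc
KIF20A and MKI67, from the mitotic program, have theirs at chr5:138178912-138179111 on the plus strand and chr10:128126424-128126623 on the minus strand. Capitals mark CCAAT or ATTGG and the cell cycle homology region TTTGAA.
KIF20A: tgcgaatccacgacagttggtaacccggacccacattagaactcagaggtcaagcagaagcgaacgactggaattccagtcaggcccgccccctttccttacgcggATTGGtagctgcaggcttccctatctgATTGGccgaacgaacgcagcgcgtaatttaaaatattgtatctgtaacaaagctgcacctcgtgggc
MKI67: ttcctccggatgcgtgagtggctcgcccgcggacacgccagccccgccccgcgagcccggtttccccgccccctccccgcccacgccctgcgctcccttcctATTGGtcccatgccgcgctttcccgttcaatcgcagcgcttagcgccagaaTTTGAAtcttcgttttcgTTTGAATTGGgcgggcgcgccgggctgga

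In the HSPA5 promoter CCAAT starts 188, 99 and 66 bases before the transcript start, and CCACG starts 52 bases before it. The CCAAT at 66 and the CCACG at 52 are 9 bases apart, which is the spacing of the ER stress response element. HSPA6 has GAANNTTC at 180 and 69 bases before the start. KIF20A has ATTGG at 94 and 67, and MKI67 has TTTGAA at 47 and 29, the second of which shares 1 base with ATTGG at 24. These matches are descriptions of the letters and not of binding.

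The same motifs were counted, on both strands, in windows of 300 bases around the starts of all 27305 RefSeq promoters, with the shares given as descriptions and the motifs chosen after the gene values had been seen. Promoters were matched for 10660 of the 15062 genes compared, 447 of the 721 genes counted as higher and 718 of the 1006 counted as lower (defined in the next paragraph). TTTGAA occurred in 150 of the 718 lower genes (20.9%) and in 36 of the 447 higher genes (8.05%), against 9.56% of the genes compared and 15.4% of all promoters. CCAAT occurred in 46.5% and 40.5% of them, against 36.4% and 35.7%, and in 24 of 34 cell cycle promoters (70.6%). The element CCAAT, 9 bases, CCACG occurred in 22 of all promoters (0.0806%), in 6 of the 447 higher genes, in 0 of the 718 lower genes and in 5 of 16 ER chaperone promoters. GAANNTTC occurred in 5 of 11 promoters of heat shock proteins, against 6.87% of all promoters. ACGTG is the core of the hypoxia response element and overlaps CCACG in the run CCACGTG. It occurred in 11 of 24 promoters of hypoxia-inducible factor targets and in 7 of 16 ER chaperone promoters. Its share was 25.7% of the higher genes, against 26.6% of the genes compared and 21.6% of all promoters.

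The difference of a gene without IL1β is its log2 CPM (prior count 2) in library 1 minus the mean of libraries 2 to 4, and the difference with IL1β is library 5 minus the mean of libraries 6 to 8. A gene was counted as higher or lower where both differences had the same sign and a size of at least 1, and where library 1 lay outside the range of libraries 2 to 4 and library 5 outside the range of libraries 6 to 8. Of 15062 genes compared, 721 were counted as higher (4.79%) and 1006 as lower (6.68%). The 2 differences had the same sign in 10791 genes, with Pearson's r of 0.703 across genes, which are not independent replicates. Only 25 genes were past the same size in opposite directions. At a size of at least 2 on the log2 scale, 78 genes were higher and 283 lower, so that the large differences were mostly losses. The medians over all genes compared were 0.03 without IL1β and -0.004 with it. TMM scaling is built to center most genes, so these medians cannot show whether a shift common to most genes was present.

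Library 5 stood further from its group than library 1 did. Library 5 alone was past a size of 1 without overlap in 1694 genes above and 2220 below, against 1219 above and 1443 below for library 1. Among the 1727 genes counted, 1116 had the larger difference in library 5, and the median size was 1.80 with IL1β and 1.55 without. The genes nearest to the threshold show how continuous the differences were. GOT1 (smaller difference 1.0004) and ALG10B (-1.0035) were among the last ones inside, and AXL (0.9975) and ZNF608 (-0.9998) were among the first ones outside.

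**Figure D1:**
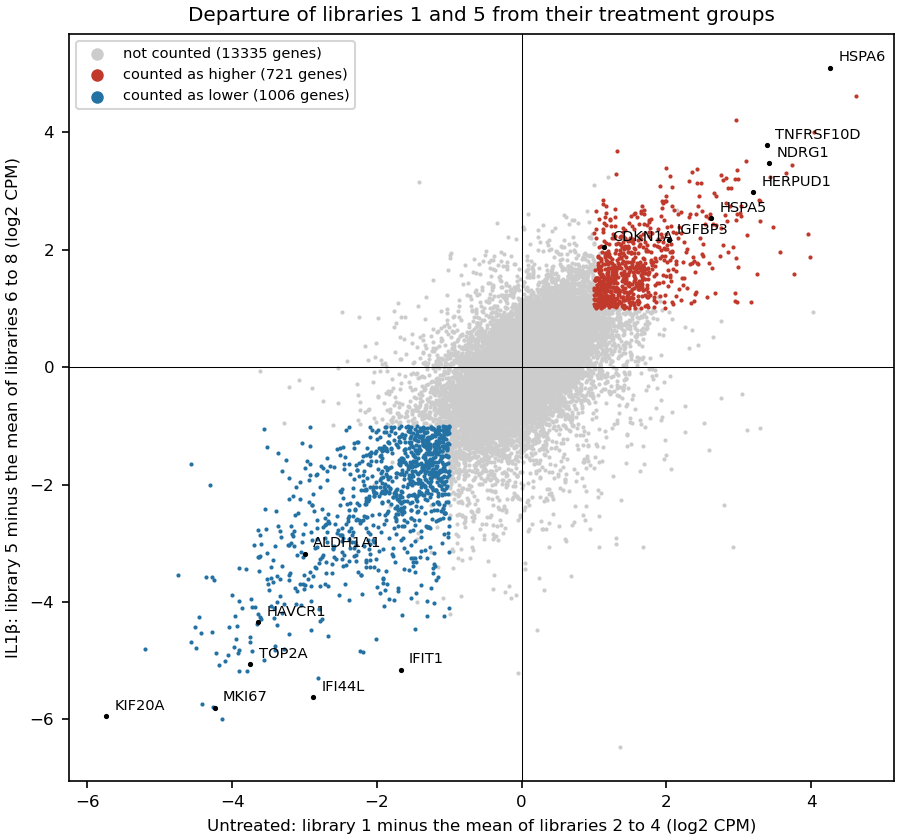
Each point is 1 of the 15062 genes compared, with its log2 difference without IL1β (library 1 minus the mean of libraries 2 to 4) on the horizontal axis and with IL1β (library 5 minus the mean of libraries 6 to 8) on the vertical axis. The 721 genes counted as higher and the 1006 counted as lower fill the upper right and lower left corners, and the lower corner reaches further from 0.

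The genes of cell division made up the lower end of the range. Of 41 genes of the cell cycle and DNA replication, 36 were counted as lower and none as higher, with median differences of -2.49 without IL1β and -2.98 with it, beside 6.68% of all genes counted as lower. The smaller of its 2 differences was used to rank a gene, and of the 12 genes lowest in this rank that averaged at least 5 CPM, 10 act in mitosis or DNA replication. In bulk RNA fewer cells in division and less mRNA per dividing cell cannot be told apart.

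KIF20A (chr5:138178719-138187723), a kinesin of the central spindle that works in cytokinesis, was the farthest of all. It had 1.58 CPM in library 1, against 89.8, 127 and 62.9 CPM in libraries 2 to 4. In the treated cells it had 1.03 CPM in library 5, against 71.2, 102 and 45.2 CPM in libraries 6 to 8. The differences were -5.74 and -5.94, and both libraries lay far under the lowest of the other 6. MKI67, whose protein Ki-67 is the usual marker of dividing cells, had 9.87 CPM in library 1, against 237, 207 and 137 CPM in libraries 2 to 4. It had 2.87 CPM in library 5, against 177, 202 and 126 CPM in libraries 6 to 8. Library 5 was lower than library 1 for most of the mitotic genes named here, as for MKI67.

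The spindle checkpoint and the kinases that drive mitosis showed the same picture. BUB1B, a checkpoint kinase, was at 3.71 CPM against 48.7 to 79.8 CPM without IL1β and at 1.47 CPM against 37.5 to 65.3 CPM with it, although 10.2% of its exon bases are shared with another annotated gene. CDK1, the kinase that starts mitosis, was at 10.1 CPM against 109 to 159 CPM and at 7.71 CPM against 132 to 153 CPM. Its partner cyclin CCNB1 was at 34.1 CPM against 215 to 311 CPM and at 20.4 CPM against 197 to 296 CPM. PLK1 (differences -3.97 and -4.23), AURKA (-3.01 and -3.55) and FOXM1 (-3.14 and -3.04), a factor that switches mitotic genes on, lay in the same range. TOP2A, which untangles sister chromosomes, was at 35.6 CPM against 347 to 607 CPM and at 12.3 CPM against 344 to 506 CPM.

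Families of this machinery split by function. The centromere and kinetochore list was taken by the symbol CENP. Most of its 22 genes, but not all, encode proteins of these structures, by which chromosomes attach to the spindle. Of the 22, 13 were lower and none higher, beside 6.68% of all genes counted as lower. Among the 13 were CENPA (-2.52 and -2.86) and CENPF (-3.76 and -4.60). Of 36 genes with a KIF symbol (the kinesin list, which also holds the non-kinesins KIFAP3 and KIF1BP), 12 were lower. All 12 are kinesins known for roles in mitosis or cytokinesis or, for KIF24, at the centriole. Kinesins known for transport in resting cells were mostly not counted. The transport motor KIF5B was at 254 CPM in library 1, against 179 to 288 CPM, and at 161 CPM in library 5, against 228 to 269 CPM. The only 2 kinesins counted as higher were KIF26B (2.23 and 1.79) and the neuronal transport motor KIF5C (1.49 and 1.16), both at low levels.

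Replication genes were lower by less. The 6 subunits of the MCM helicase, which unwinds DNA at the fork, were all counted, with medians of -1.92 and -2.11. MCM7 had 79.3 CPM in library 1, against 359, 487 and 396 CPM in libraries 2 to 4. It had 90.5 CPM in library 5, against 448, 506 and 405 CPM in libraries 6 to 8. RRM2, which makes deoxynucleotides, was lower by more (-2.62 and -3.51), and TYMS, which makes thymidylate, by less (-1.30 and -1.46). E2F1 was at 9.24 CPM against 37.7 to 59.7 CPM and at 15.9 CPM against 47.2 to 65.0 CPM. PCLAF, a partner of the replication clamp, was at 0.587 CPM against 13.5 to 16.1 CPM and at 0.588 CPM against 15.5 to 15.96 CPM, and shares 29.3% of its exon bases with another gene of the same strand.

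The 5 genes of the list that were not counted all act at the entry into or during S phase. PCNA, the replication clamp, was at 162 CPM against 189 to 251 CPM and at 119 CPM against 178 to 244 CPM. CCNE1 (-0.94 and -1.13), CCNE2 (-0.95 and -2.13) and FEN1 (-1.07 and -0.86) were past a size of 1 in 1 treatment only. CDC6, which loads the MCM helicase, did not share the direction. It was at 151 CPM in library 1, against 109.7 to 121 CPM in libraries 2 to 4, and at 88.1 CPM in library 5, against 91.6 to 112 CPM in libraries 6 to 8.

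**Figure D2:**
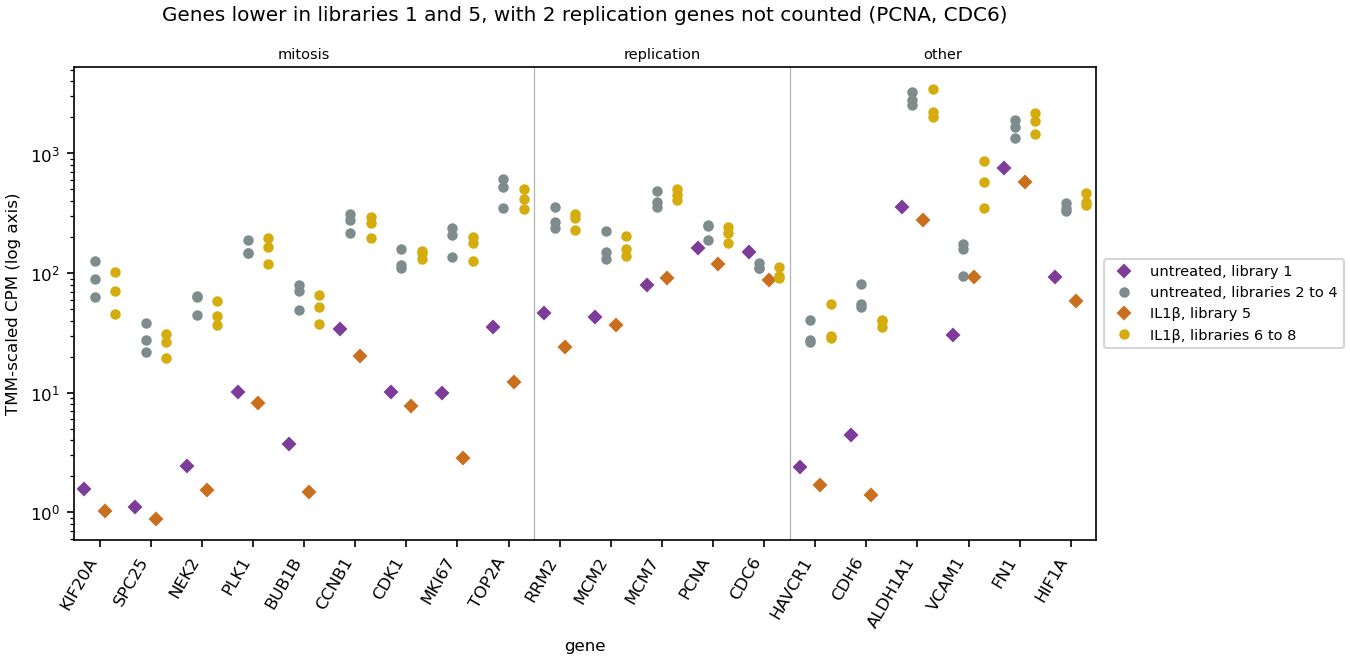
TMM-scaled CPM on a log axis of genes counted as lower, by role, with 1 point for each library; diamonds are libraries 1 and 5, circles libraries 2 to 4 and 6 to 8, and PCNA and CDC6 are shown as replication genes that were not counted. Apart from CDC6, both diamonds lie under all circles of their own treatment, farthest for KIF20A at 1.58 and 1.03 CPM.

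Genes outside the cell cycle were also lower, among them several at high levels. ALDH1A1, which oxidizes retinaldehyde, had 358 CPM in library 1, against 2563, 2790 and 3249 CPM in libraries 2 to 4. It had 278 CPM in library 5, against 2030, 2224 and 3487 CPM in libraries 6 to 8. The aldo-keto reductases AKR1B10 (-1.63 and -1.83), AKR1C2 (-3.09 and -2.49) and AKR1C3 (-2.49 and -2.13) were lower together. AKR1C1 was not counted, at -0.91 and -0.77, and the AKR1C genes are close copies whose reads are hard to assign. These 3 reductases and GSR are the 4 genes lower among 21 targets of the oxidative stress factor NRF2, beside 6.68% of all genes. In this list HMOX1, which breaks down heme, was higher (1.06 and 1.13) and NQO1 was not counted (0.21 and 0.33).

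Of 21 genes of the renal lineage, 4 were lower and none higher, and of 20 genes of epithelial junctions 4 were lower, beside 6.68% of all genes counted as lower. Medians were -0.37 and -0.12 for the renal list and -0.02 and -0.38 for the junctions. HAVCR1, the kidney injury molecule of proximal tubule cells, was at 2.38 CPM in library 1, against 26.5 to 40.1 CPM in libraries 2 to 4, and at 1.69 CPM in library 5, against 28.5 to 55.4 CPM in libraries 6 to 8. CDH6, the kidney cadherin that is abundant in this carcinoma, was at 4.44 CPM against 52.1 to 80.5 CPM and at 1.40 CPM against 35.0 to 40.3 CPM. KCNJ16, a potassium channel of the tubule, was at 0.257 CPM against 6.26 to 8.87 CPM and at 0.0735 CPM, a single count, against 6.95 to 13.8 CPM. PAX8 itself was not counted (-0.12 and 0.41).

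Among 37 matrix glycoproteins and proteoglycans 7 were lower and none higher, beside 6.68% of all genes counted as lower, with medians of -0.22 and -0.70. FN1, fibronectin, was at 758 CPM against 1334 to 1893 CPM and at 577 CPM against 1441 to 2169 CPM. POSTN, periostin, was at 98.7 CPM against 238 to 427 CPM and at 69.3 CPM against 255 to 345 CPM. Fibroblast markers were lower in their sum, with median differences of -0.54 without IL1β and -1.19 with it. Of the 12, 8 lay below the mean of their treatment in both treatments and 2 above it. The 12 of them, all above 0, summed to 233 CPM in library 1 and 242 CPM in library 5, against 437 to 1679 CPM in the rest, with COL3A1 at 140 CPM and DCN at 41.7 CPM in library 4 and at 44.8 and 15.5 CPM in library 6, against 0.277 to 10.4 CPM in the other libraries. The mean deviation of these markers in log2 CPM from the average of the 8 libraries did not set libraries 1 and 5 apart. It was -0.293 in library 1, against -1.486 to 2.739 in libraries 2 to 4. In library 5 it was -0.754, against -1.189 to 1.445 in libraries 6 to 8. POSTN was the only one of the 12 counted, and the part of these markers in the lower matrix genes was not tested. HNRNPA2B1, a splicing regulator and one of the most abundant genes counted as lower, was at 654 CPM against 1497 to 1922 CPM and at 605 CPM against 1719 to 1795 CPM.

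Stress programs were among the genes counted as higher. Of 27 genes of the unfolded protein response and heat shock, 14 were counted as higher and none as lower, with medians of 1.41 without IL1β and 1.04 with it, beside 4.79% of all genes counted as higher. In 26 of the 27 both differences lay above 0. Of the 16 chaperones and quality control factors of the ER, 10 were counted (medians 1.64 and 1.37), and all 16 lay above 0 in both treatments.

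HSPA5 (chr9:125234853-125241382), the ER chaperone BiP that holds the stress sensors inactive, was among the most abundant mRNAs. It had 9171 CPM in library 1, against 1748, 916 and 2064 CPM in libraries 2 to 4. It had 10049 CPM in library 5, against 1900, 1106 and 2458 CPM in libraries 6 to 8. The other 6 libraries themselves differed by more than a factor of 2, with library 3 and library 7 lowest, but none came near libraries 1 and 5 (differences 2.62 and 2.54). HERPUD1, which passes misfolded proteins on to degradation, followed the same order of libraries. It had 1136 CPM in library 1, against 111, 79.8 and 213 CPM in libraries 2 to 4. It had 1292 CPM in library 5, against 157, 92.9 and 300.2 CPM in libraries 6 to 8.

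DNAJB9, a co-chaperone of BiP, was at 302 CPM against 18.6 to 45.5 CPM and at 310 CPM against 36.8 to 86.2 CPM. SDF2L1 (1.69 and 2.60), CRELD2 (1.99 and 2.84), MANF (1.72 and 2.01) and DNAJC3 (2.43 and 1.77), all induced by ER stress, were higher too. HSP90B1, the ER form of HSP90, was just past the threshold (1.12 and 1.04). The folding enzymes were higher by less and not counted, with PDIA4 at 0.83 and 0.75, PDIA6 at 0.38 and 0.33, and the lectin chaperone CALR at 0.35 and 0.81.

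Heat shock genes of the cytosol were higher selectively, with 4 of 11 counted (medians 0.82 and 0.71), beside 4.79% of all genes. HSPA6 (chr1:161524540-161526894), outside that list of 11, is a strictly inducible form of HSP70. It had 47.9 CPM in library 1, against 3.49, 1.72 and 2.29 CPM in libraries 2 to 4. It had 88.7 CPM in library 5, against 4.85, 2.03 and 1.55 CPM in libraries 6 to 8. HSPA1A had 485 CPM against 62.1 to 78.8 CPM and 915 CPM against 79.4 to 117 CPM. HSPA1B was at 367 CPM against 41.1 to 55.0 CPM and at 673 CPM against 68.0 to 94.2 CPM, but it is a near-identical copy of HSPA1A and shares 36.6% of its exon bases with another annotated gene, so that the split between the copies is uncertain. The co-chaperones BAG3 (1.54 and 2.17) and DNAJB1 (1.41 and 1.53) and the stress-induced zinc finger protein ZFAND2A (366 CPM against 30.5 to 62.9 CPM, and 454 CPM against 36.6 to 59.95 CPM) were higher. HSP90AA1 (0.57 and 0.36) and the mitochondrial chaperone HSPD1 (0.36 and 0.26), which are plentiful in unstressed cells, were not counted.

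Among 33 genes of the integrated stress response, by which ATF4 answers blocked translation, 7 were higher and none lower (medians 0.70 and 0.53). Of all genes compared, 4.79% were counted as higher. DDIT3, the factor CHOP that ATF4 switches on, had 95.4 CPM in library 1, against 14.6, 15.0 and 31.3 CPM in libraries 2 to 4. It had 151 CPM in library 5, against 14.8, 11.3 and 28.2 CPM in libraries 6 to 8. On the other strand 31.6% of its exon bases are shared with other genes, and the strand setting of the counting is not given. TRIB3 (1.40 and 2.24), CHAC1 (1.37 and 2.23) and SESN2 (1.14 and 1.496) were counted, while ATF4 itself, which is controlled mainly by translation, was at 0.31 and 0.96. Several of these genes lay close to the threshold, and only 2 of the 33 were counted when library 2, the lowest untreated library for DDIT3, TRIB3, CHAC1 and SESN2, was left out.

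**Figure D3:**
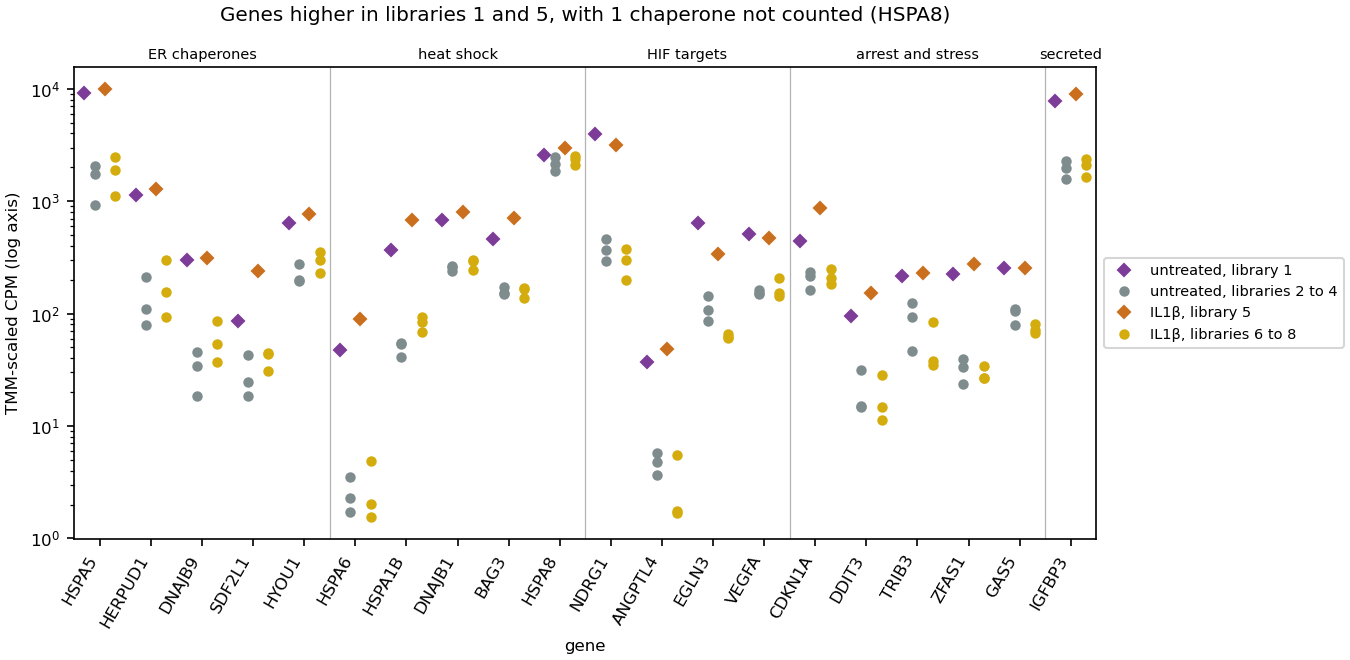
TMM-scaled CPM on a log axis of genes counted as higher, by role, with 1 point for each library; diamonds are libraries 1 and 5, circles libraries 2 to 4 and 6 to 8, and the constitutive chaperone HSPA8 is shown as a gene that was not counted. Both diamonds lie above all circles of their own treatment, by most for HSPA6 at 47.9 and 88.7 CPM and by little for HSPA8.

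Many targets of hypoxia-inducible factors were higher. Of 30 targets and subunits listed, 15 were higher and 1 lower, beside 4.79% and 6.68% of all genes, with medians of 1.17 and 1.22. NDRG1, a growth arrest protein that hypoxia induces, had 3924 CPM in library 1, against 292, 463 and 370 CPM in libraries 2 to 4. It had 3144 CPM in library 5, against 301, 200.1 and 379 CPM in libraries 6 to 8. The angiogenic factor VEGFA was at 515 CPM against 149.6 to 161 CPM and at 472 CPM against 142 to 208 CPM. EGLN3, a prolyl hydroxylase that marks the factor for destruction, was at 635 CPM against 85.7 to 142 CPM and at 342 CPM against 60.6 to 65.6 CPM.

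ANGPTL4, a secreted inhibitor of lipoprotein lipase, was higher by 2.96 and 4.21, BNIP3L, a receptor for the removal of mitochondria, by 2.07 and 2.09, ERO1A, an oxidase of ER folding, by 1.73 and 1.41, and LDHA, which makes lactate, by 1.28 and 1.29. ANKRD37 (2.45 and 2.92) shares 40.3% of its exon bases with a gene of the other strand. Others in the list were not counted, with BNIP3 at 0.35 and 0.45, PDK1 at 1.15 and 0.23 and the glucose transporter SLC2A1 at 1.06 and 0.67. Of 19 glycolysis genes 3 were counted, all as higher, beside 4.79% of all genes, and PGK1 was at 0.40 and 0.57.

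The 2 main α subunits of the factor itself went opposite ways. EPAS1, which encodes HIF2α, had 513 CPM in library 1, against 96.2, 82.2 and 121 CPM in libraries 2 to 4. It had 506 CPM in library 5, against 152, 122 and 163 CPM in libraries 6 to 8. HIF1A, which encodes HIF1α, had 92.2 CPM in library 1, against 386, 332 and 350.4 CPM in libraries 2 to 4, and was the only gene of the list counted as lower. It had 58.6 CPM in library 5, against 372, 390.1 and 471 CPM in libraries 6 to 8. Neither gene overlapped between libraries 1 and 5 and the rest in either treatment.

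Histone genes were higher. Of 11 compared, 8 were higher and none lower, beside 4.79% of all genes counted as higher, with medians of 2.10 and 2.03. The 8 are replication-dependent histones, whose mRNA normally rises in S phase, and 1 of the 3 not counted, H1F0, is a replication-independent form. HIST1H4H had 22.2 CPM in library 1, against 0.998 to 1.94 CPM in libraries 2 to 4. It had 19.8 CPM in library 5, against 0.987, 0.917 and 1.61 CPM in libraries 6 to 8. HIST1H2AC was at 67.8 CPM against 6.32 to 13.8 CPM and at 55.7 CPM against 5.36 to 7.51 CPM, and HIST1H2BK at 42.0 CPM against 6.71 to 9.86 CPM and at 54.1 CPM against 7.66 to 11.2 CPM. Most transcripts of these genes end in a stem loop without a poly(A) tail, and polyadenylated forms are known in resting and differentiated cells. The copies are close in sequence, so the share of each is uncertain.

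Of 23 targets of p53, 8 were higher and none lower (medians 0.89 and 1.04). Of all genes compared, 4.79% were counted as higher and 6.68% as lower. CDKN1A, the inhibitor p21 that stops cyclin-dependent kinases, had 442 CPM in library 1, against 161, 215 and 234 CPM in libraries 2 to 4. It had 869 CPM in library 5, against 247, 207 and 184 CPM in libraries 6 to 8. BTG2 (1.15 and 1.29), TP53INP1 (2.03 and 1.66) and XPC (1.17 and 1.19) were counted. Other inhibitors of the cycle did not share the direction of CDKN1A. Of 12 D cyclins, their kinases, the inhibitors and the retinoblastoma family, 1 was higher and 3 were lower (medians -0.52 and -0.65), with the inhibitor CDKN2C at -2.25 and -2.61, the retinoblastoma relative RBL1 at -1.54 and -2.32, CCND3 at -1.15 and -1.10 and, not counted, the inhibitor CDKN1B at -0.59 and -0.49. On the other strand 20.4% of the exon bases of CDKN2C are shared with another gene. The p53 regulator MDM2 was at 1.19 and 0.52 and the stress cytokine GDF15 at -0.06 and 0.72, so neither was counted. TNFRSF10D, a decoy receptor for the death ligand TRAIL, had 452 CPM against 34.1 to 58.4 CPM and 464 CPM against 32.4 to 35.1 CPM.

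One secreted protein linked to growth arrest reached a very high level. IGFBP3, which binds insulin-like growth factors, had 7850 CPM in library 1, against 1968, 1582 and 2272 CPM in libraries 2 to 4. It had 9036 CPM in library 5, against 2090.1, 1650.4 and 2369.8 CPM in libraries 6 to 8. LMNB1, a nuclear lamin that is lost in senescent cells, was lower (-2.43 and -3.37). Of 19 genes listed for senescence-associated secretion, 4 were higher and 3 lower, beside 4.79% and 6.68% of all genes. LMNB1, which is not secreted and is expected to be lower in senescence, was among the 3, beside AREG and TNFRSF11B. The medians of the list were 0.45 without IL1β and -0.39 with it, so it had no one direction.

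Host genes of small nucleolar RNAs had no one direction, with 4 of 27 higher and 2 lower, beside 4.79% and 6.68% of all genes, and medians of -0.32 and 0.22. Several of these spliced RNAs are known to be removed by nonsense-mediated decay when they are translated. ZFAS1 had 224 CPM in library 1, against 33.7, 23.9 and 39.6 CPM in libraries 2 to 4, and 274 CPM in library 5, against 27.0, 26.9 and 34.2 CPM in libraries 6 to 8. On the other strand, 36.4% of its exon bases are shared with other genes. SNHG5 (2.33 and 2.61), GAS5 (1.40 and 1.81) and SNHG6 (1.34 and 1.70) were higher too, and SNHG4 was lower (-1.30 and -1.04). The RNA farthest above the others of all genes averaging at least 5 CPM was AC016831.7, with 20.6 CPM in library 1, against 0.504 to 0.897 CPM, and 28.2 CPM in library 5, against 0.724 to 1.81 CPM. By class, long noncoding RNAs were counted as higher in 80 of 708 (11.3%) and as lower in 40 (5.65%), and protein-coding genes in 492 (3.95%) and 857 (6.88%) of 12454.

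Several lists of basic functions held no gene that was counted. None of 43 ribosomal protein genes, 30 nuclear genes of the respiratory chain, 13 mitochondrially encoded genes, 22 genes of ribosome biogenesis, 21 genes of antigen presentation, 11 of fatty acid synthesis and 21 targets of YAP and TEAD was counted either way. GAPDH was at 3419 CPM in library 1, against 3536 to 5112 CPM, and at 5528 CPM in library 5, against 4149 to 4989 CPM. ACTB was at 5734 CPM against 7476 to 10197 CPM and at 8734 CPM against 8997 to 11088 CPM. A gene not counted can still differ. Of the 43 ribosomal protein genes 34 lay above 0 in both treatments, with a median of 0.76 in library 5 and of 0.29 in library 1.

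Library 5 also differed from its group by the length of transcripts, over all genes compared. With genes split into 4 bins of equal number by exon length, the median difference was 0.325 in the shortest bin and -0.36 in the longest with IL1β, and 0.035 and -0.014 without it. The share of genes counted as higher was 6.59% in the shortest bin and 3.13% in the longest, and of those counted as lower 6.24% and 7.16%. When the median of each bin was taken off in every library, a step added after the data had been seen, 593 genes were counted as higher and 917 as lower, of the 13526 with a length. The count of cell cycle genes stayed at 36, that of hypoxia-inducible factor targets at 15 and that of interferon-stimulated genes at 10, and that of the unfolded protein response and heat shock was 15. Whether ribosomal proteins followed transcript length was not tested.

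**Figure D4:**
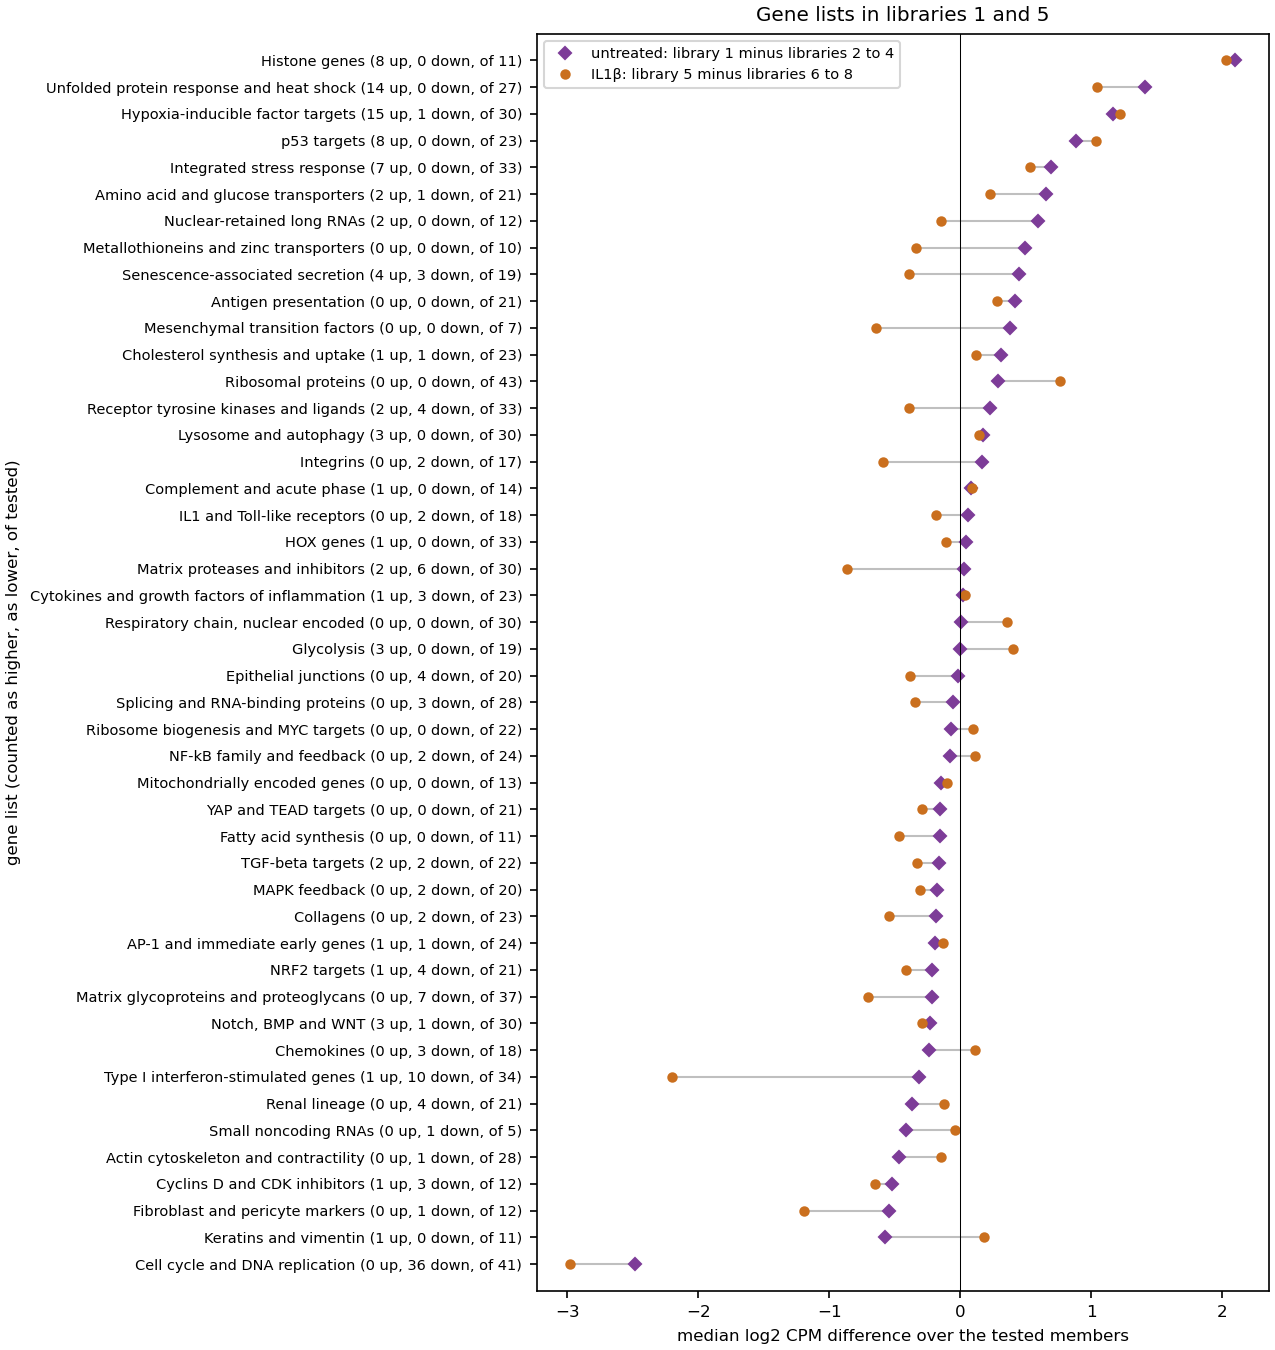
Median log2 difference of the members of gene lists without IL1β (library 1) and with IL1β (library 5), with the counts of members higher and lower beside each list. Cell cycle genes lie farthest below 0 (-2.49 and -2.98), histone genes (2.10 and 2.03) and the unfolded protein response (1.41 and 1.04) lie above it, and interferon-stimulated genes are far apart between the treatments (-2.20 in library 5 and -0.32 in library 1).

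The last question was whether cells in this condition answered IL1β as the others did. The response was first tested in the other 6 libraries alone, 3 treated against 3 untreated, by the quasi-likelihood F test of edgeR, with p adjusted over 15127 genes by the Benjamini-Hochberg method. In these, 378 genes rose (2.5%) and 54 fell (0.357%) at an adjusted p under 0.05. The study's methods describe the cultures as experimental pairs of treated and untreated cells, but the labels do not say which belong together, so the test is unpaired. The p-values cover the spread between these cultures, which may be technical. Library 5 minus library 1 is 1 library against 1, so it is given as a value with no test, and the difference between both responses was not tested.

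Most of the response was present in library 5. Of 372 risen genes with a value in both comparisons, 333 were higher in library 5 than in library 1 and 196 of them by at least 1, with a median of 1.06, against 1.49 in the other 6 libraries. Over all genes with both values, the median of library 5 minus library 1 was -0.043. The risen genes were chosen by their values in the other 6 libraries, which favors larger differences there. All 53 fallen genes were lower in library 5 than in library 1 (median -1.24, against -1.02). The median response of the chemokines kept its size, with 13 of 18 risen and 4.08 for library 5 minus library 1, against 4.32 in the others. Single members did not all keep their level. Of the 18, 3 were counted as lower in libraries 1 and 5, beside 6.68% of all genes. They were CX3CL1 (smaller difference -2.46), CXCL14 (-2.26) and CXCL11 (-1.99). The feedback genes of NF-kB, of which 7 of 24 rose, had medians of 1.73 and 1.33. Both counts changed when a library was left out. Chemokines that rose went from 5 of 18 without library 2 to 15 without library 4. NF-kB genes that rose went from 3 of 24 without library 8 to 16 without library 4.

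CXCL8, the main chemoattractant of neutrophils, had 4637 CPM in library 5, against 129 CPM in library 1. In the others it had 4653, 3574 and 4629 CPM in libraries 6 to 8, against 310.5, 26.0 and 477 CPM in libraries 2 to 4 (log2 fold change 4.01, SE 0.83, adjusted p = 0.0431 by edgeR). That call was lost without library 2, 6, 7 or 8, with adjusted p between 0.0927 and 0.164; the untreated levels were far apart. NFKBIZ, a nuclear cofactor of NF-kB, had 174 CPM in library 5, against 9.13 CPM in library 1, beside 115 to 184 CPM in libraries 6 to 8, against 12.02 to 27.5 CPM in libraries 2 to 4 (3.02, SE 0.351, adjusted p = 0.00356 by edgeR). TNFAIP6, a matrix-binding protein that inflammation induces, had 199 CPM against 8.95 CPM, beside 168 to 205 CPM against 22.6 to 23.3 CPM (3.06, SE 0.15, adjusted p = 0.000103 by edgeR). Library 5 was within or near the range of the treated libraries in these genes.

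Interferon-stimulated genes had other values in library 5. These genes are switched on by type I interferons and encode antiviral proteins. In the other 6 libraries 31 of 34 rose, all 34 were higher with IL1β and the median difference of mean log2 CPM was 2.14. Between library 5 and library 1 only 21 of 34 were higher, with a median of 0.28. Of the 39 risen genes that were lower in library 5 than in library 1, 12 belonged to this list. In 23 of the 34, libraries 1 and 5 both lay below the mean of the other libraries of their treatment, some by little. The median difference from that mean was -2.20 for library 5 and -0.32 for library 1. In both treatments together 10 of the 34 were counted as lower, beside 6.68% of all genes. The only member counted as higher was ISG20, an exonuclease (1.83 and 1.02), beside 4.79% of all genes.

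IFIT1, which binds foreign RNA, had 6.98 CPM in library 5, against 9.79 CPM in library 1. In the others it had 291, 268 and 203 CPM in libraries 6 to 8, against 35.9, 39.0 and 22.1 CPM in libraries 2 to 4 (log2 fold change 2.99, SE 0.255, adjusted p = 0.000842 by edgeR). It was therefore near its untreated level in library 5 and already low in library 1. RSAD2, the antiviral enzyme viperin, had 1.40 CPM in library 5, against 3.23 CPM in library 1, beside 41.2 to 63.9 CPM against 1.69 to 6.48 CPM. MX2 had no count in library 5, against 0.954 CPM in library 1, beside 7.12 to 11.4 CPM against 0.168 to 0.598 CPM. IFI44L was low in both, at 2.64 CPM in library 5, against 4.33 CPM in library 1, beside 114 to 154 CPM against 24.6 to 41.7 CPM.

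The count of 31 held or stood near in most settings, but was 22 without library 6 and 25 without library 7 or library 8. It was 21 with all 8 libraries and a term that sets libraries 1 and 5 apart. With all 8 libraries and no such term only 6 of 34 rose. The adjusted p of IFIT1 was then 0.228, so libraries 1 and 5 decided that call. CXCL10, a chemokine that interferons also induce, was higher in library 5 than in library 1 but far below the other treated libraries. It had 3.31 CPM in library 5, against 0.624 CPM in library 1, beside 39.7 to 60.6 CPM against 0.252 to 3.1 CPM. CCL5, another chemokine, was within the range of the other treated libraries, at 70.4 CPM in library 5 against 19.7 CPM in library 1, beside 58.4 to 70.8 CPM against 5.04 to 7.97 CPM (3.36, SE 0.2, adjusted p = 0.000251 by edgeR).

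The interferons themselves were at the edge of detection, and these 2 were chosen after their values had been seen. IFNB1, the type I interferon that most cells make, had 0 counts in library 5, against 0 in library 1, and 9, 8 and 12 counts in libraries 6 to 8, against 6, 1 and 0 in libraries 2 to 4. With a floor of 3 counts in library 5, IFNB1 was at least 2.39-fold lower there than the mean of libraries 6 to 8. IFNL1, a type III interferon, had 2 counts in library 5, against 0 in library 1, and 44, 11 and 17 counts in libraries 6 to 8, against 0, 3 and 0 in libraries 2 to 4. The receptor subunits IL1R1 and IFNAR1 were present in library 5, at 49.8 and 122 CPM, against 84.9 to 95.1 CPM and 146 to 159 CPM in libraries 6 to 8.

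Some induced genes were low in both libraries and were still higher in library 5 than in library 1. HAS3, which makes hyaluronan, had 121 CPM in library 5, against 9.61 CPM in library 1, beside 293 to 334 CPM against 47.9 to 64.8 CPM (2.52, SE 0.159, adjusted p = 0.000271 by edgeR). CSF1, the growth factor of macrophages, had 1175 CPM in library 5, against 192 CPM in library 1, beside 2680.4 to 3704 CPM against 744 to 921 CPM. NOS2, which makes nitric oxide, had 3.31 CPM against a single count, 0.0367 CPM, beside 16.6 to 20.9 CPM against 0.0996 to 0.252 CPM (6.59, SE 0.319, adjusted p = 0.000103 by edgeR). IL32, a cytokine of epithelial cells, was higher in both libraries than in the rest, at 782 CPM in library 5, against 382 CPM in library 1, beside 241 CPM in each of libraries 6 to 8, against 134 to 199 CPM in libraries 2 to 4.

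**Figure D5:**
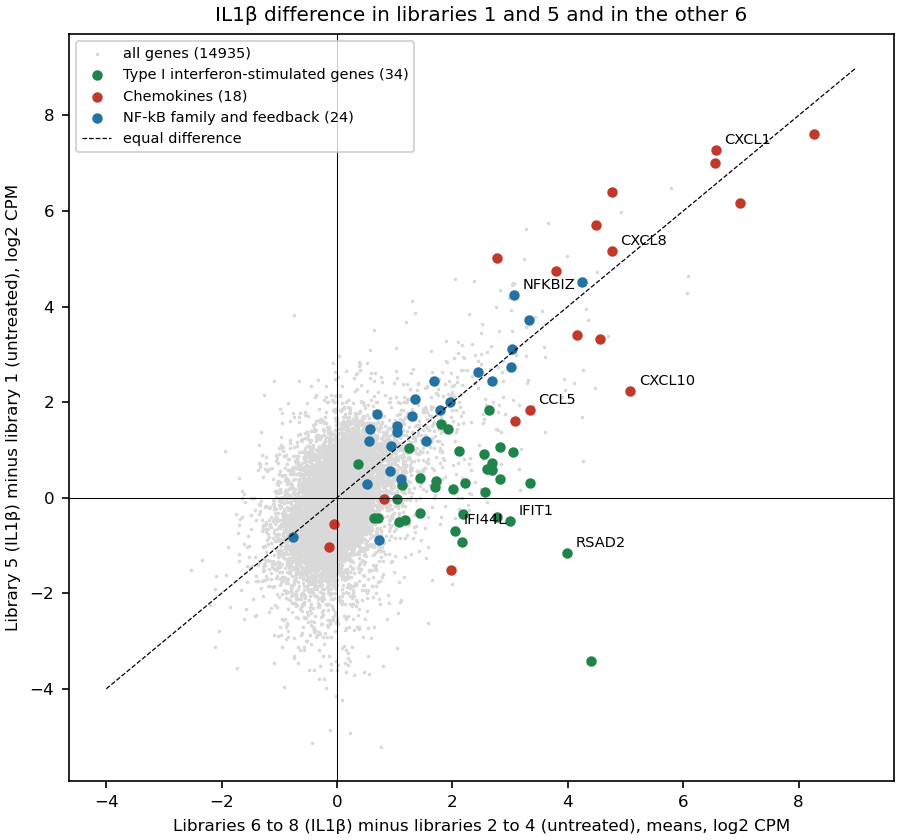
Each point is a gene, with the mean log2 CPM of libraries 6 to 8 minus that of libraries 2 to 4 on the horizontal axis and library 5 minus library 1 on the vertical axis; chemokines, NF-kB feedback genes and interferon-stimulated genes are colored and the dashed line marks equal differences. CXCL8 and CXCL1 lie above the line (5.17 and 7.28 on the vertical axis), and nearly all interferon-stimulated genes lie below it, with IFIT1 (-0.48) and RSAD2 (-1.15) under 0.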

How the data were processed

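RNA of A498 cells was measured in 8 stranded libraries. The authors used STAR 2.5.3a and hg38 to align the trimmed reads, and the raw counts per gene that they deposited came from featureCounts. For featureCounts, the version, the annotation and the strand mode were not given in the sources used here. Of 59050 entries, 27 whose name had become a date were left out (0.197% to 0.236% of the counts of a library). Symbols were matched to GENCODE 44 for coordinates, lengths and overlaps with other genes. Counts of different libraries summed to different totals, and genes at a few counts carry little information.

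Factors were computed by TMM in edgeR 4.0.16 (R 4.3.3). The 15062 genes that passed filterByExpr with treatment as group were described by log2 CPM at a prior count of 2. Libraries 1 and 5 were each set against the 3 others of their treatment. An IL1β effect of equal size in all cultures could therefore not enter the difference. An unequal response to IL1β stays in the difference of library 5, as in the interferon-stimulated genes. No p was computed because gene levels chose the 2 libraries. IL1β against untreated was tested in the other 6 libraries by glmQLFit and glmQLFTest, which were tested on simulated data, with Benjamini-Hochberg adjustment. Promoters came from RefSeq tables, and sequence windows were searched as exact letters.

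The members and the gene lists were chosen with earlier results of these data known. Genes were named by a rule that took the 12 farthest each way that averaged at least 5 CPM, up to 3 members of each list counted each way (or the 2 most abundant where none was counted), the 5 most abundant counted each way, GAPDH and ACTB, and the 6 with the smallest p for IL1β. Any gene outside the rule, such as PCNA, CDC6, HSPD1, CALR, ATF4, MDM2, IL1R1 and IFNAR1, was chosen after its values were seen. Alternatives were RLE, upper-quartile or library size scaling, other filters, prior counts and size thresholds, thinned libraries, a fitted difference in edgeR, each of the other 6 libraries left out, DESeq2 1.42.0, limma-voom (limma 3.58.1) and all 8 libraries with or without a term for libraries 1 and 5. Counts within lists, the named genes and the length step were added as alternatives after the data were seen.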

Additional observations from a re-analysis of the deposited data

Results flagged for a closer look

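In groups of 4 to 6 libraries, a library was picked out where its gap to the nearest of the others took up most of the range of the group (Dixon's criterion), a step that chance alone takes in about 1 in 20 groups. Of 192 groups of values looked at, 25 had such a library, and in 18 of them it was library 1 or library 5. Since these 2 libraries were chosen on the same gene levels, the flags describe them and are no separate evidence.

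For library 1 among the untreated libraries, the values picked out were the PC1 score of -59.5, the 20.128% of counts in the 100 most abundant genes, and the mean deviations in log2 CPM from the average of the 8 libraries of the cell cycle list (-1.792), the kinesins (-0.858), the centromere and kinetochore proteins (-1.135) and the hypoxia-inducible factor targets (0.876). For library 5 among the treated libraries they were the PC1 score of -101.7, the 22.917% of counts in the 100 most abundant genes, and the mean deviations of the cell cycle list (-2.313), kinesins (-1.118), centromere and kinetochore proteins (-1.323), D cyclins and inhibitors of cyclin-dependent kinases (-0.3), the renal lineage (-0.239), interferon-stimulated genes (-0.927), the unfolded protein response and heat shock (1.185), p53 targets (0.867), glycolysis (0.406) and lysosome and autophagy (0.274).

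Other libraries were picked out in 7 groups. Library 2 was low for nuclear genes of the respiratory chain among the untreated libraries (-0.117), and among the 6 libraries other than 1 and 5 for glycolysis (-0.291), the renal lineage (-0.19) and lysosome and autophagy (-0.34). Library 4 was high among the untreated libraries for the actin cytoskeleton (0.597) and among the 6 for host genes of small nucleolar RNAs (0.313). Library 8 was high for small noncoding RNAs among the treated libraries (2.566).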

How the results depend on the processing

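The size threshold moved the counts most. At a log2 difference of 0.58 there were 1740 genes counted as higher and 1873 as lower, and at 2 there were 78 and 283, against 721 and 1006. No filter gave 1131 higher, and a fitted difference in edgeR without the demand that libraries do not overlap gave 1208 and 1748. Leaving out each of the other 6 libraries gave 719 to 826 higher and 995 to 1087 lower. Scaling by library size only moved the medians over all genes to -0.053 and -0.161, and 32.5% of the genes counted were then higher, against 41.75% with TMM. Among the named genes that were counted, none had both differences change sign in the settings checked. The other size thresholds and the fitted difference were not among these settings. A change of sign in only 1 treatment was not flagged by this check. Of the 146 named genes, 28 moved by more than the spread between libraries. Libraries 1 and 5 could not be left out, since both make up the comparison.

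For IL1β in the other 6 libraries, 378 genes rose and 54 fell. No filter gave 790 and 295, DESeq2 gave 651 and 196, all 8 libraries without a term for libraries 1 and 5 gave 140 and 9, and the term gave 159 fallen. Library size only gave 97 fallen. Leaving out each library gave 122 to 487 risen and 3 to 79 fallen, lowest without library 6, so the counts rest on few libraries. The cause of these moves was not tested. No paired analysis was possible because, although the methods describe experimental pairs, the labels give treated and untreated libraries no shared replicate numbers. With 1 library apart per treatment, the spread of that condition cannot be measured.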
